A study of Mus musculus with 18 samples.

Results

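The genes described here are 32 mouse genes whose products drive or carry out mitosis, chosen by name as a module of mitosis and spindle genes. On the array, 31 of the 32 had a probe set annotated to that symbol alone, and all 31 were bright enough to stay among the 10916 genes tested of 18193 measured; Ccnb1, the B1 cyclin, had none that was named here and was not measured. Signals come from 18 one-colour Affymetrix arrays of mouse RNA. Cells of 3 mammary tumors, numbered 1, 2 and 7, were sorted by surface staining for CD29 (integrin beta1) and CD24 into 4 populations, each high (H) or low (L) for either protein: CD29H CD24H, CD29H CD24L, CD29L CD24H and CD29L CD24L. Each tumor gave 1 array per population (n = 3 each). Tumors 1 and 2 are labelled as transplant generation 1, and tumor 7 carries no generation. The labels give no genotype, strain, age or treatment for any group. Cells labelled as normal mammary epithelial cells are numbered 1 and 2, called preparations here although no label says that a number marks the same cells. Each number has 1 array of a gate high for CD29 and positive (P) for CD24, CD29H CD24P, and 1 of the reverse gate, CD29P CD24H. Preparation 2 also gave 1 array of CD24 low cells (CD24L), and 1 array held a commercial reference RNA. The series was made to find genes expressed differently in the tumor-initiating cells among these populations.

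Mitosis begins when the cyclin-dependent kinase Cdk1, bound to its A and B cyclins, phosphorylates chromosome, spindle and envelope proteins. Kinetochores then attach chromosomes to spindle microtubules, a checkpoint holds the cell until attachment is complete, and the anaphase-promoting complex destroys securin and cyclin so that sister chromatids part and the cell divides. The genes for these proteins are transcribed mainly in the G2 phase and mitosis, so that in a tissue their RNA levels are widely used as a measure of cell division. In the mammary gland, CD29 high CD24 positive cells hold the basal layer, and CD24 high cells the luminal layer.

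The labels were read against defining markers before the results. In the normal arrays the basal keratins Krt5 and Krt14 had signals of at least 13690 in CD29H CD24P cells and of at most 236 in CD29P CD24H cells, and the luminal keratin Krt18 was lower in the first than in the second. The normal CD24L array went against its epithelial label: the summed signal of 14 fibroblast markers was 362200, against 10510 to 28960 on the other normal arrays, and that of 10 luminal markers was 8110, against 37470 to 208800. It is a single array, entered no test, and is called the array labelled CD24L. In tumor 7, Krt5 was at most 69.9 and Krt14 at most 446 in all 4 populations, while in tumors 1 and 2 Krt5 was at least 1000. RNA for the sorted proteins followed the gates in part. In normal cells Itgb1 (CD29) signal was 1264 and 2183 in CD29H CD24P against 778 and 635 in CD29P CD24H, and Cd24a 18050 and 15110 against 34180 and 40170. In tumors 1, 2 and 7, Itgb1 was 3152, 5660 and 5620 in CD29H CD24L cells, above the 1118, 458 and 2064 of CD29L CD24L cells in each tumor. In CD29H CD24H cells it was 1893, 534 and 4529 against 1049, 1490 and 8532 in CD29L CD24H cells, above only in tumor 1. Cd24a was 44030, 33640 and 37310 in CD29H CD24H cells against 34170, 27130 and 41280 in CD29H CD24L cells, above in tumors 1 and 2 and below in tumor 7. The highest correlation between any 2 arrays of sorted cells was 0.98, and none were duplicates. The actin 3'/5' ratio, a measure of how far RNA or its copies were shortened, was 14.4 to 99.3 on the tumor arrays and 3.08 to 24.7 on the 4 normal arrays used, so the ratio ran higher in tumors, with some overlap. Array medians ran from 71.6 to 104 signal units, and the number of arrays limits the precision. Where separate animals are not stated, as for the normal preparations, p-values measure only the spread between these samples, which may be technical.

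Upstream sequence was read for the genes that the tests below single out, because shared promoter motifs are a known route by which these genes are switched on together. RefSeq promoters of GRCm38.p6 were at hand for 28 of the 32 genes, and the 250 bases before the start site were searched on both strands. A CCAAT box (letters CCAAT, or ATTGG on the other strand), the site of the factor NF-Y, was in 21 of the 28 (75%), against 34.5% of 27025 promoters in the table. At least 2 such boxes were in 15 (53.6%), against 10.5%. The core of the cell cycle homology region, the element bound by the DREAM and MuvB complexes, was searched as TTTGAA and TTCGAA: the first was in 9 (32.1% against 16.3%), the second in 2 (7.14% against 1.34%) and either in 10 (35.7% against 17.4%). An E2F-type site spelled GCGGGAA was in 0 of the 28, against 3.84%, which says only that these letters are not in this window. A match is a description of the sequence and not a site of binding. The 140 bases before the start are given 5′ to 3′ on the gene's strand for the 5 genes that passed a test without a block, with CCAAT boxes and TTTGAA in capitals; these genes were picked after their values were seen.
Cenpa, chr5:30666746-30666885, plus strand: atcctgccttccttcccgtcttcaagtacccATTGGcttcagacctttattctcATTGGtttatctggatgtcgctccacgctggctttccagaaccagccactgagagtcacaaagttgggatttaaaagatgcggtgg
Cenpf, chr1:189688087-189688226, minus strand: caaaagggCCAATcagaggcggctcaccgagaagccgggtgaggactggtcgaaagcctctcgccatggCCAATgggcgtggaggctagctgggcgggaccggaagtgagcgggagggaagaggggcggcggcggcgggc
Cdca8, chr4:124936918-124937057, minus strand: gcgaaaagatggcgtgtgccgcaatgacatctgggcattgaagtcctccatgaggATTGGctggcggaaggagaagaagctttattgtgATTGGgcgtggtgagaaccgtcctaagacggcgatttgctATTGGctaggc
Cdc20, chr4:118437344-118437483, minus strand: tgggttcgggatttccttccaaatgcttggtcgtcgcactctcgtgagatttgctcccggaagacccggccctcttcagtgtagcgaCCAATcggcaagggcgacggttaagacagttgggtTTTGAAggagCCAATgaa
Anln, chr9:22389207-22389346, minus strand: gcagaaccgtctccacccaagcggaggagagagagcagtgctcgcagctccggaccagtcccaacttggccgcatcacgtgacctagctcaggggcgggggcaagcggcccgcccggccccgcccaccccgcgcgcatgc
Cenpa and Cenpf each show 2 boxes and Cdca8 shows 3. Cdc20 shows 2 boxes around a TTTGAA core. Anln alone among the 5 has none of the searched motifs, in these bases or in the 250 searched.

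The first question was whether mitosis genes are higher in CD29H CD24H tumor cells than in the other 3 populations. All 31 genes had a positive mean difference, with a median of 0.57 log2 units (a log2 difference of 1 is a 2-fold difference on the scale of log2 of signal plus 32). The lowest was Birc5 at 0.12 and the highest Mad2l1 at 1.17. Over all genes tested the median was 0.004, and 50.4% were positive. No mitosis gene passed an adjusted p of 0.05 in limma, and neither did any other gene (0 of 10916 higher, background 0%). With tumor as a block 0 of the 31 passed, against 0.0366% of all genes higher. At an unadjusted p under 0.05, 4 of the 31 were higher, against 1.97% of all genes. Counted within each tumor, CD29H CD24H was the highest of the 4 populations in all 3 tumors for 16 of the 31 genes, against 4.83% of all genes, in 2 tumors for 8 and in 1 tumor for 7. CD29H CD24H exceeded the mean of the other 3 in every tumor for 25 genes, against 20.1% of all genes. Markers of other cells moved the other way: 0 of 14 fibroblast genes were positive (median -1.51, 3 lower with tumor as a block) and 0 of 12 tested myeloid genes (median -0.74), and their part was not tested. In sorted bulk samples, fewer dividing cells and less RNA per cell cannot be told apart.

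**Figure D1:**
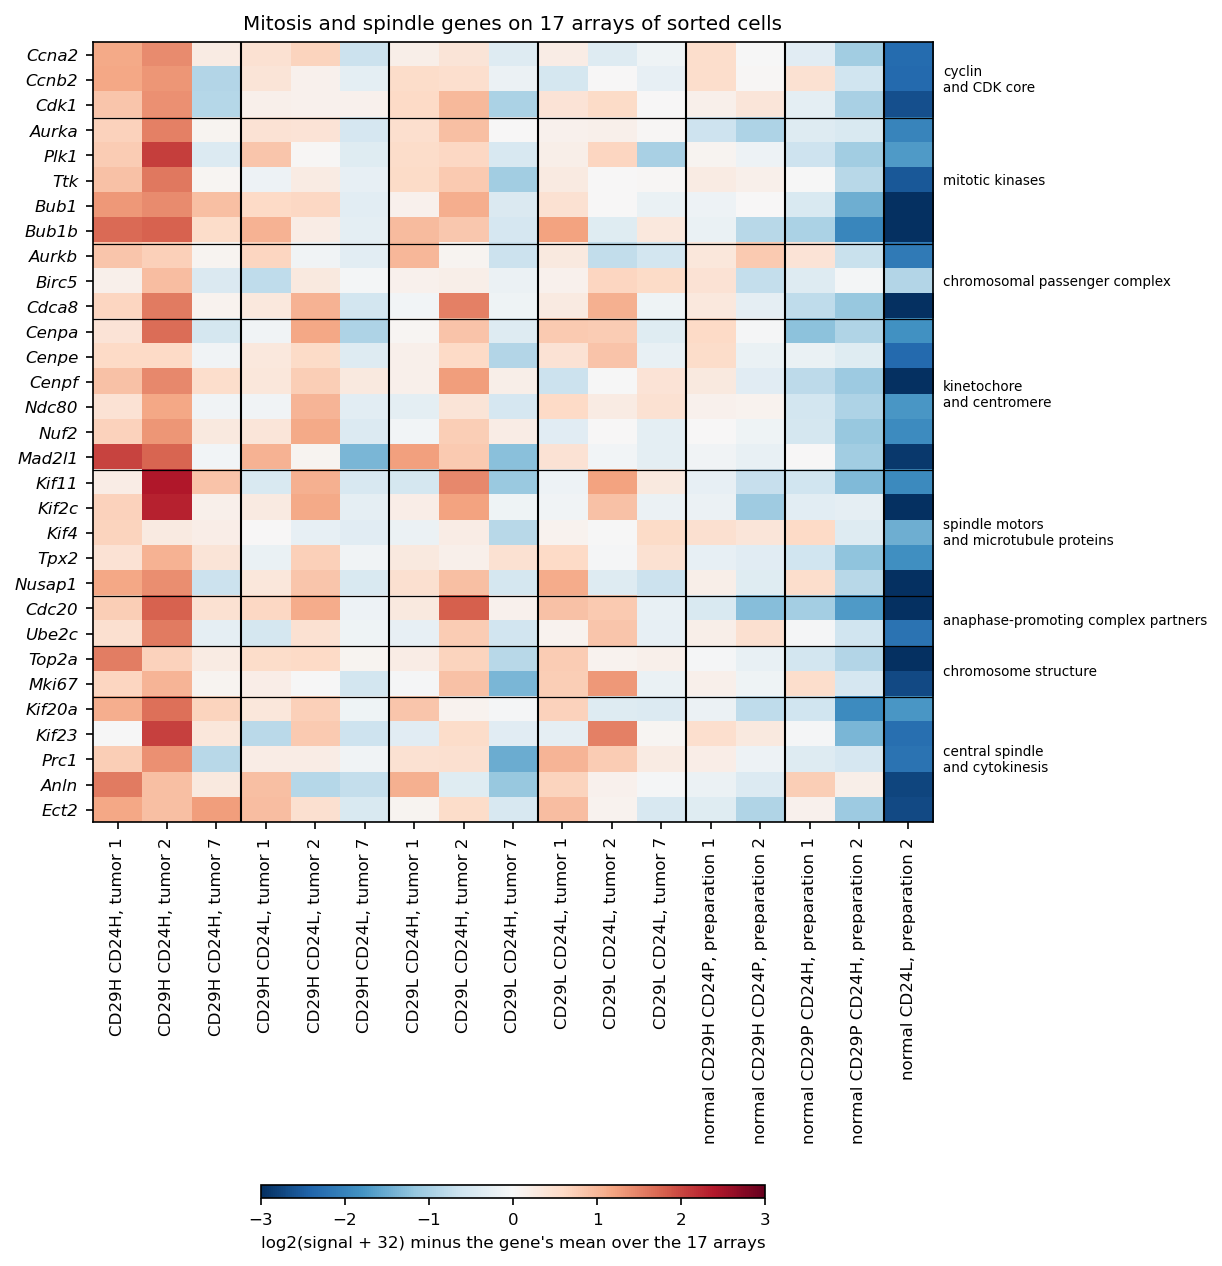
Each cell is 1 gene (rows, grouped by role) on 1 of the 17 arrays of sorted cells (columns), coloured by log2(signal + 32) minus that gene's mean over the 17 arrays. The CD29H CD24H array of tumor 2 is the reddest tumor column and the array labelled CD24L is blue for nearly all genes.

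The 3 tumors differed in how far the pattern went. The median difference of CD29H CD24H from the other populations was 0.51 in tumor 1, 0.87 in tumor 2 and 0.40 in tumor 7. In tumor 1 all 31 genes lay above the mean of the others and 23 were highest in CD29H CD24H. In tumor 2 these counts were 30 and 28, with Cenpe, a kinetochore motor, below at -0.07. In tumor 7 they were 26 and 20. The 5 genes of tumor 7 below the mean were Ccnb2, Cdk1, Birc5, Prc1 and Nusap1, the lowest of them at -0.64 (Ccnb2). Of the other populations, none was the highest for more than 6 genes in any tumor. The shares of all genes within single tumors were not counted. The lowest population changed from tumor to tumor: in tumor 2 it was CD29L CD24L for 19 genes and in tumor 7 CD29L CD24H for 15.

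**Figure D2:**
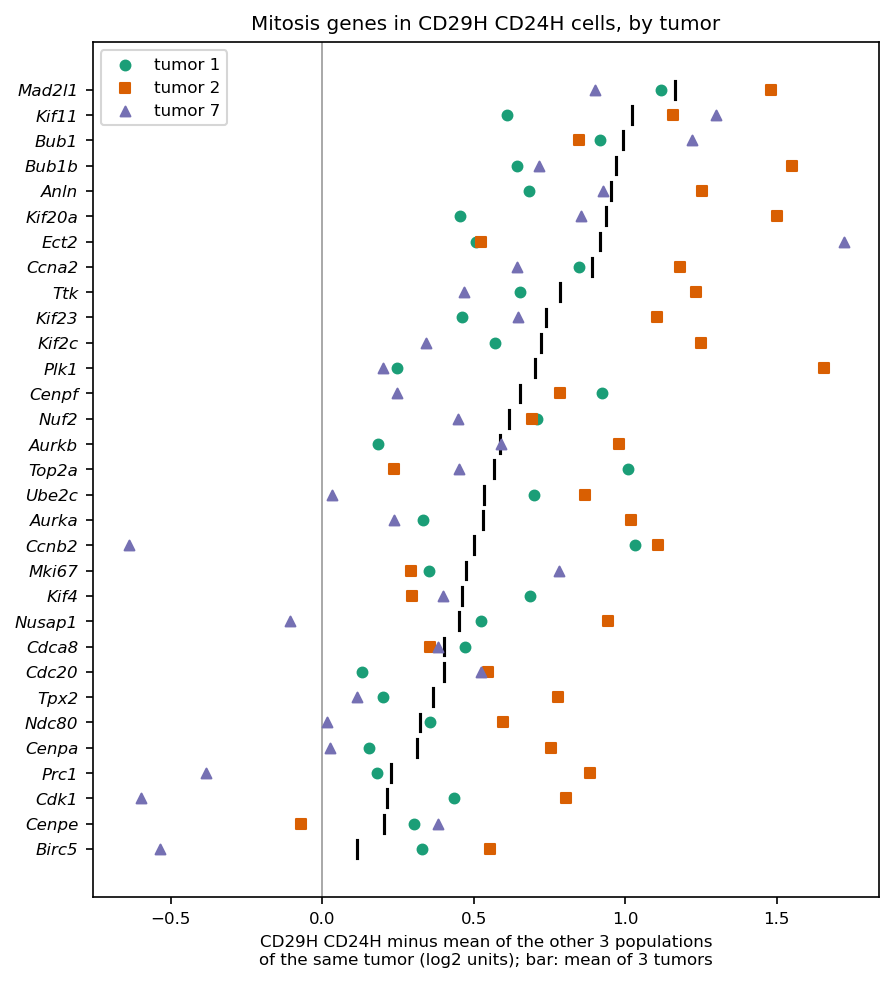
Points give, for each gene (rows), the log2 difference between CD29H CD24H cells and the mean of the other 3 populations of the same tumor (x axis, log2 units), for tumors 1 (circle), 2 (square) and 7 (triangle), and bars the mean of the 3 tumors. All bars lie right of 0, and 5 triangles and 1 square lie left of it.

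Among the checkpoint and mitotic kinases all 5 differences were positive, from 0.53 to 0.99. Bub1, a kinase of the spindle checkpoint, had the smallest p of the module in the fit without a block. The SE and p values given for these genes come from that fit unless a block is named, and include spread between tumors. Bub1 signal in tumors 1, 2 and 7 was 1896, 2060 and 1425 in CD29H CD24H cells, 1141, 1170 and 593 in CD29H CD24L cells, 819, 1629 and 548 in CD29L CD24H cells and 1037, 755 and 644 in CD29L CD24L cells. It was highest in CD29H CD24H in each tumor, and the mean difference was 0.99 ± 0.35 (SE; adjusted p = 0.538, limma). With tumor as a block its adjusted p was 0.0673, and with the block and the actin ratio as a covariate 0.0458, the one setting of 32 alternatives that called it (range 0.0458 to 1). Bub1b, which encodes the checkpoint protein BubR1, followed. In tumors 1, 2 and 7 the signal of Bub1b was 3094, 3251 and 1373 in CD29H CD24H cells, 1951, 1089 and 749 in CD29H CD24L cells, 1812, 1637 and 641 in CD29L CD24H cells and 2167, 719 and 1156 in CD29L CD24L cells. Its difference was 0.97 ± 0.45 (SE; adjusted p = 0.724, limma), and tumor 2 had the widest gap, 1.55. Aurka, the kinase of spindle poles, was dimmer. Across tumors 1, 2 and 7, Aurka signal was 629, 1128 and 402 in CD29H CD24H cells, 520, 507 and 258 in CD29H CD24L cells, 550, 738 and 381 in CD29L CD24H cells and 418, 419 and 386 in CD29L CD24L cells. Every CD29H CD24H value topped its own tumor, but the tumor 7 value lay below every value of tumors 1 and 2. Plk1, a kinase of mitotic entry and cytokinesis, rested on tumor 2. Plk1 signal in tumors 1, 2 and 7 was 370, 965 and 146 in CD29H CD24H cells, 388, 208 and 151 in CD29H CD24L cells, 314, 328 and 137 in CD29L CD24H cells and 235, 335 and 87.6 in CD29L CD24L cells. Outside tumor 2 the CD29H CD24H values lay within the range of the other populations. Ttk, the kinase Mps1 at the head of the checkpoint, ran from 120.5 to 909 on the tumor arrays, with a difference of 0.79 ± 0.40 (SE).

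The cyclin and Cdk core had 3 measured genes with differences of 0.22 to 0.89. Ccna2 is cyclin A2, which acts in S phase and mitotic entry. In tumors 1, 2 and 7 the signal of Ccna2 was 2633, 3193 and 1421 in CD29H CD24H cells, 1647, 1914 and 740 in CD29H CD24L cells, 1331, 1561 and 899 in CD29L CD24H cells and 1385, 895 and 1087 in CD29L CD24L cells. CD29H CD24H was highest in each tumor, with a difference of 0.89 ± 0.36 (SE; adjusted p = 0.635, limma). Cdk1 itself did not follow in tumor 7. Across tumors 1, 2 and 7, Cdk1 signal was 1875, 2742 and 562 in CD29H CD24H cells, 1164, 1142 and 1156 in CD29H CD24L cells, 1607, 2085 and 530 in CD29L CD24H cells and 1397, 1578 and 1058 in CD29L CD24L cells. There CD29H CD24H lay below 2 of the 3 other populations, and the mean difference over the tumors was 0.22 ± 0.47 (SE). Ccnb2, cyclin B2, showed the same split: 2381 and 2664 in CD29H CD24H cells of tumors 1 and 2, the highest of each, and 554 in tumor 7, the lowest there.

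The chromosomal passenger complex corrects wrong attachments; its kinase is Aurkb, and Birc5 (survivin) and Cdca8 (borealin) anchor it. Aurkb signal in tumors 1, 2 and 7 was 543, 505 and 313 in CD29H CD24H cells, 474, 268 and 228 in CD29H CD24L cells, 614, 312 and 177 in CD29L CD24H cells and 364, 163 and 190 in CD29L CD24L cells. Aurkb was highest in CD29H CD24H in tumors 2 and 7, and in CD29L CD24H in tumor 1. In tumors 1, 2 and 7 the signal of Birc5 was 361, 636 and 230 in CD29H CD24H cells, 176, 401 and 306 in CD29H CD24L cells, 354, 367 and 281 in CD29L CD24H cells and 350, 514 and 490 in CD29L CD24L cells. Birc5 had the smallest difference of the module, 0.12 ± 0.33 (SE), and its groups overlapped throughout. Cdca8 was at 0.40 ± 0.46 (SE), with tumor 2 highest in every population.

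Of the 6 kinetochore and centromere genes, Mad2l1, which encodes the checkpoint inhibitor Mad2, had the largest difference in the module. Across tumors 1, 2 and 7, Mad2l1 signal was 10780, 8874 and 2489 in CD29H CD24H cells, 5473, 2774 and 993 in CD29H CD24L cells, 6214, 4574 and 1077 in CD29L CD24H cells and 3575, 2478 and 2139 in CD29L CD24L cells. CD29H CD24H was highest in each tumor, and tumor 7 lay below the other tumors in every population. Its difference was 1.17 ± 0.61 (SE; adjusted p = 0.790, limma). With tumor as a block it was 1.17 ± 0.28 SE (adjusted p = 0.0581, limma), the smallest adjusted p of the module in that fit. The others were at 0.20 (Cenpe), 0.31 (Cenpa, the centromeric histone), 0.32 (Ndc80) and 0.62 (Nuf2), both of the microtubule-binding Ndc80 complex, and 0.65 (Cenpf, a kinetochore protein of the G2 phase).

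The spindle motors and microtubule proteins ran from 0.37 (Tpx2, the activator of Aurora A) to 1.02 (Kif11, the motor that separates spindle poles). Kif11 signal was 435, 2069 and 691 in CD29H CD24H cells of tumors 1, 2 and 7, in each case the highest of its tumor. The central spindle and cytokinesis genes included 3 of the larger differences. Kif20a is a motor of the central spindle. Kif20a signal in tumors 1, 2 and 7 was 584, 887 and 431 in CD29H CD24H cells, 338, 451 and 236 in CD29H CD24L cells, 490, 284 and 253 in CD29L CD24H cells and 440, 191 and 188 in CD29L CD24L cells. It was highest in CD29H CD24H in each tumor and differed by 0.94 ± 0.35 (SE; adjusted p = 0.564, limma). Ect2 is the exchange factor that activates RhoA for the contractile ring. In tumors 1, 2 and 7 the signal of Ect2 was 2752, 2311 and 2935 in CD29H CD24H cells, 2344, 1723 and 883 in CD29H CD24L cells, 1288, 1813 and 861 in CD29L CD24H cells and 2363, 1305 and 860 in CD29L CD24L cells. CD29H CD24H again led each tumor. It differed by 0.92 ± 0.38 (SE; adjusted p = 0.645, limma), and tumor 7 had the widest gap, 1.72. Anln, the ring scaffold anillin, is taken up below.

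Chromosome structure was covered by Top2a, the topoisomerase that untangles chromatids, and Mki67, the Ki-67 antigen of dividing cells. Across tumors 1, 2 and 7, Top2a signal was 8722, 4882 and 3590 in CD29H CD24H cells, 4432, 4528 and 3208 in CD29H CD24L cells, 3536, 4794 and 1680 in CD29L CD24H cells and 5129, 3256 and 3323 in CD29L CD24L cells. Top2a was highest in CD29H CD24H in all 3 tumors, by a narrow margin in tumor 2. Mki67 signal in tumors 1, 2 and 7 was 7271, 9378 and 4844 in CD29H CD24H cells, 5331, 4592 and 3119 in CD29H CD24L cells, 4477, 8533 and 1764 in CD29L CD24H cells and 7702, 11420 and 4012 in CD29L CD24L cells. Mki67 was highest in CD29L CD24L cells in tumors 1 and 2 and in CD29H CD24H only in tumor 7. Its mean difference was 0.48 ± 0.44 (SE). The partners of the anaphase-promoting complex were Cdc20, its activator, and Ube2c, its ubiquitin-conjugating enzyme, with differences of 0.40 ± 0.42 and 0.53 ± 0.42 (SE).

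The CD29H CD24H array of tumor 2 had the highest level of the module among tumor arrays, and its actin 3'/5' ratio was 23.2, against 49.6 to 99.3 on the other tumor arrays except the CD29L CD24L array of tumor 2 at 14.4. Without that array the median difference was 0.16 with 26 of 31 positive, and without both arrays 0.29, also with 26 positive. These fits have no block and keep the other arrays of tumor 2. With tumor as a block and that array left out the median was 0.46 with 28 positive. This estimate rests on tumors 1 and 7 alone. Leaving out both arrays with the block, or tumor 2 altogether, returns the same estimate by design and is no further check. With no block and the CD29H CD24H array of tumor 7 left out the median was 0.87. The count of genes highest in CD29H CD24H in every tumor was 8 of 31 when all probe sets of a gene were averaged, and 9 of 25 with probe sets of the unique type only, whose names carry no mark of probes shared between transcripts. The share of all genes was not counted under these 2 choices. Of 31 further probe sets of 19 genes, 20 had a positive difference. The 11 of opposite sign belonged to Aurka, Bub1b, Cenpa, Kif11, Kif23, Kif2c, Top2a and Tpx2, and had a mean log2 level of 5.48 to 8.18, against 7.88 to 12.7 for the probe sets used; of 9 further probe sets at 8 or more, 8 were positive. The part of RNA quality in the difference was addressed by the fit with the actin ratio as a covariate, given for Bub1 above, and not otherwise tested.

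Each of the other populations was then compared with CD29H CD24H, in fits that share the same 3 CD29H CD24H arrays. Against CD29H CD24L, 31 of 31 genes were positive (54.2% of all genes) with a median of 0.57; 0 passed the test, as did 0% of all genes, while 2.17% of all genes were lower. With tumor as a block, Mad2l1 (1.31 ± 0.35 SE, adjusted p = 0.0390) and Anln (1.14 ± 0.31 SE, adjusted p = 0.0486) passed in limma, against 0.348% of all genes, and both were higher in 3 of 3 tumors. Each passed in 1 of 30 alternatives, this one, with adjusted p up to 1. In the blocked fit the count of 2 became 0 without any 1 of the CD29H CD24H or CD29H CD24L arrays, without the CD29L CD24H array of tumor 1, or without tumor 1 or tumor 2. It became 1 without tumor 7, or without that tumor's CD29L CD24L array alone, and 3 without the CD29L CD24H array of tumor 7. The shares of all genes in these blocked fits with arrays left out are not given. The CD29H CD24L arrays also held the most fibroblast RNA: the sum of 14 markers was 221200 to 265000, against 19910 to 49860 in CD29H CD24H, and whether that bears on the mitosis genes was not tested. Of 5 endothelial genes tested 0 were positive, with a median of -1.28 and 2 lower with the block. The sum of 10 such markers was 1328 to 4656 in CD29H CD24L and 744 to 1548 in CD29H CD24H, with Pecam1 at most 41.5, and their part was not tested. Against CD29L CD24H, 31 of 31 were positive (47.7% of all genes) with a median of 0.61, and 0 passed, with or without the block (0% of all genes higher in both). Against CD29L CD24L, 28 of 31 were positive (51.3% of all genes) with a median of 0.66, and 0 passed (background 0%, and 0.119% with the block). There the summed signal of 11 lymphocyte markers was 1858 to 10090, against 320.2 to 437 in CD29H CD24H, and the T cell gene Cd3e was at 606, 64.7 and 273 in tumors 1, 2 and 7 against 12.7 to 71.4; their part was not tested. Of 12 myeloid genes tested there, 0 were positive, with a median of -1.28, and their part was not tested either.

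By single marker, high against low CD29 gave a median of 0.28 with 29 of 31 positive, and high against low CD24 gave 0.33 with 27 positive, where 49.2% and 55.3% of all genes were positive. No mitosis gene passed in either (background 0% and 0.00916% higher), nor with the block (0.614% and 0.394% higher). Without the block Kif20a had the smallest p of the module in both, at 0.59 ± 0.30 for CD29 and 0.58 ± 0.30 for CD24 (SE; adjusted p = 0.813 and 0.731, limma).

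Tumor of origin took a larger part of the variation than the gate did. Over the 12 tumor arrays, the tumor accounted for a median of 57.1% of a mitosis gene's sum of squares and the population for 25.9%, where all genes tested had medians of 38.4% and 23.3%. Tumor exceeded population for 24 of the 31. Tumor 7 was the lowest tumor for 26 genes, against 37.6% of all genes, and the highest was tumor 2 for 22 and tumor 1 for 9. The median gene lay 0.89 log2 units higher in tumor 2 than in tumor 7, and 0.71 higher in tumor 1 than in tumor 7, where the medians of all genes were 0.06 and 0.05. The tumor share ran from 6.03% for Tpx2 to 86.3% for Cdca8, and population took more than tumor for Bub1 (51.9% against 32.2%) and Kif20a (51.5% against 25%), among others. Across the 12 tumor arrays, which share tumors and a common scaling, mitosis genes correlated pairwise at a median r of 0.60, and at 0.50 after each tumor's mean was taken out. How often tumor exceeded population, which tumor was highest and the pairwise correlation were not taken over all genes. A tumor has no replicate here, so all these values are descriptions.

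**Figure D3:**
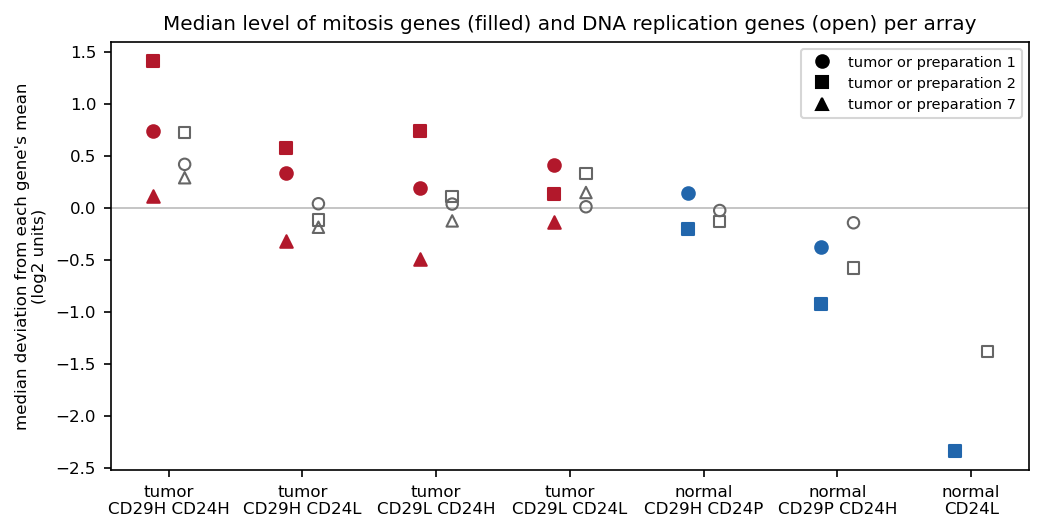
For each array of sorted cells, the filled point is the median over 31 mitosis genes of the deviation from each gene's mean over 17 arrays, and the open point the same for 25 DNA replication genes (y axis, log2 units). Symbols mark the tumor or preparation. Tumor 7 (triangles) has the lowest filled point in each tumor population.

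The study also held normal cells, where the comparison was between the basal gate CD29H CD24P and the luminal gate CD29P CD24H. Cenpa, the centromeric histone, Cdca8 and Cenpf were higher in CD29H CD24P cells. These are 3 of 31, a share below the 13.3% of all genes that were higher, and 14% of all genes were lower, with 0 mitosis genes among them. Normal Cenpa signal was 2218 and 1405 in CD29H CD24P cells of preparations 1 and 2, and 602 and 765 in CD29P CD24H cells. Both basal values lay above both luminal ones, and the difference was 1.34 ± 0.30 (SE; adjusted p = 0.00862, limma). Normal Cdca8 signal was 5031 and 3357 in CD29H CD24P cells of preparations 1 and 2, and 2364 and 1813 in CD29P CD24H cells. The difference was 0.98 ± 0.28 (SE; adjusted p = 0.0279, limma), again without overlap. Normal Cenpf signal was 1894 and 1199 in CD29H CD24P cells of preparations 1 and 2, and 869 and 700 in CD29P CD24H cells. Cenpf differed by 0.92 ± 0.29 (SE; adjusted p = 0.0444, limma).

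The rest of the module leaned the same way with wide spread. Of the 31, 26 were positive with a median of 0.60, where 48.7% of all genes were positive. Values did not overlap, with CD29H CD24P higher, for 16 genes, against 31.1% of all genes, and with it lower for Aurka and Anln, against 33.3%. Normal Bub1 signal was 674 and 751 in CD29H CD24P cells of preparations 1 and 2, and 534 and 252 in CD29P CD24H cells. Both basal values were above the luminal ones, with a difference of 0.89 ± 0.34 (SE; adjusted p = 0.0839, limma). Normal Cdk1 signal was 1173 and 1355 in CD29H CD24P cells of preparations 1 and 2, and 850 and 517 in CD29P CD24H cells. Cdk1 was at 0.89 ± 0.29 (SE; adjusted p = 0.0506, limma). Normal Plk1 signal was 217 and 180 in CD29H CD24P cells of preparations 1 and 2, and 121 and 82.5 in CD29P CD24H cells. Plk1 did not overlap between the gates. Normal Top2a signal was 2926 and 2574 in CD29H CD24P cells of preparations 1 and 2, and 2032 and 1612 in CD29P CD24H cells. Top2a had a narrower gap without overlap, 0.59 ± 0.25 (SE). Normal Mki67 signal was 5088 and 4196 in CD29H CD24P cells of preparations 1 and 2, and 6665 and 3240 in CD29P CD24H cells. Mki67 values crossed between preparations, so that the mean difference was -0.01 ± 0.33 (SE). Normal Aurka signal was 234 and 185 in CD29H CD24P cells of preparations 1 and 2, and 278 and 267 in CD29P CD24H cells. Aurka had lower basal values without overlap, with a difference of -0.34 ± 0.27 (SE; adjusted p = 0.387, limma). Normal Aurkb signal was 378 and 524 in CD29H CD24P cells of preparations 1 and 2, and 399 and 172 in CD29P CD24H cells. Normal Birc5 signal was 444 and 182 in CD29H CD24P cells of preparations 1 and 2, and 238 and 304 in CD29P CD24H cells. Both genes overlapped between the gates.

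The calls changed with the arrays entered, in fits that leave 1 array in a gate, which is then assumed to vary like the other gate. The calls of Cenpa, Cdca8 and Cenpf did not hold without the CD29H CD24P array of preparation 1. The median of the mitosis genes was 0.298 without the CD29P CD24H array of preparation 2 and 0.907 without that of preparation 1. With all probe sets averaged the differences of Cenpa, Cdca8 and Cenpf were 0.76, 0.61 and 0.45, and none of the 3 passed (adjusted p = 0.0572, 0.195 and 0.222, limma). With unique-type probe sets Cenpa (0.77) and Cdca8 (0.53) did not pass, without a filter Cdca8 and Cenpf did not, and Cenpf was also lost under quantile normalization and without the intensity trend. The luminal array of preparation 1 also had the highest actin 3'/5' ratio of the 4, 24.7 against 3.08 to 7.09, and the sum of 14 myeloid markers was 12070 to 14330 in CD29P CD24H against 2898 to 3127 in CD29H CD24P. Neither part was tested.

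Tumors were next set against normal cells, with 1 mean per tumor over 4 populations (n = 3) and 1 per preparation over the 2 gates (n = 2). Cdc20 was the 1 mitosis gene that passed, where 4.44% of all genes were higher. In tumors 1, 2 and 7 the signal of Cdc20 was 11320, 23440 and 9307 in CD29H CD24H cells, 10560, 14850 and 6166 in CD29H CD24L cells, 8320, 23680 and 7481 in CD29L CD24H cells and 12510, 11690 and 5850 in CD29L CD24L cells. Normal Cdc20 signal was 4970 and 2773 in CD29H CD24P cells of preparations 1 and 2, and 3342 and 2091 in CD29P CD24H cells. Every tumor array lay above every normal one. The difference was 1.80 ± 0.42 (SE; adjusted p = 0.0495, limma). The call did not hold in limma with an offset of 1 (adjusted p = 0.0518), without a filter (0.0558), with a filter over the arrays compared (0.0509), without the intensity trend (0.0576), with a median shift of the arrays (1.59, 0.0638) or with probe sets averaged (0.0803). With unique-type probe sets the difference was 0.94 (0.148). Over its 15 alternatives the adjusted p ran from 0.0167 to 0.401, and 4 of them passed. Leaving out tumor 1 or tumor 2 ended the call (adjusted p = 0.104 and 0.0646, limma), and so did leaving out preparation 1 or preparation 2. Without tumor 7 the median of the mitosis genes was 0.92. The actin ratios, given above, ran higher on the tumor arrays, and their part was not tested. The summed signal of 14 fibroblast markers was 13270 to 265000 on tumor arrays and 10510 to 28960 on these normal arrays, and 11 of 14 were higher in tumors (13 positive, median 2.497). The sum of 14 myeloid markers was 11540 to 70160 against 2898 to 14330, and of 12 tested 6 were higher (12 positive, median 2.33). The part of neither was tested.

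**Figure D4:**
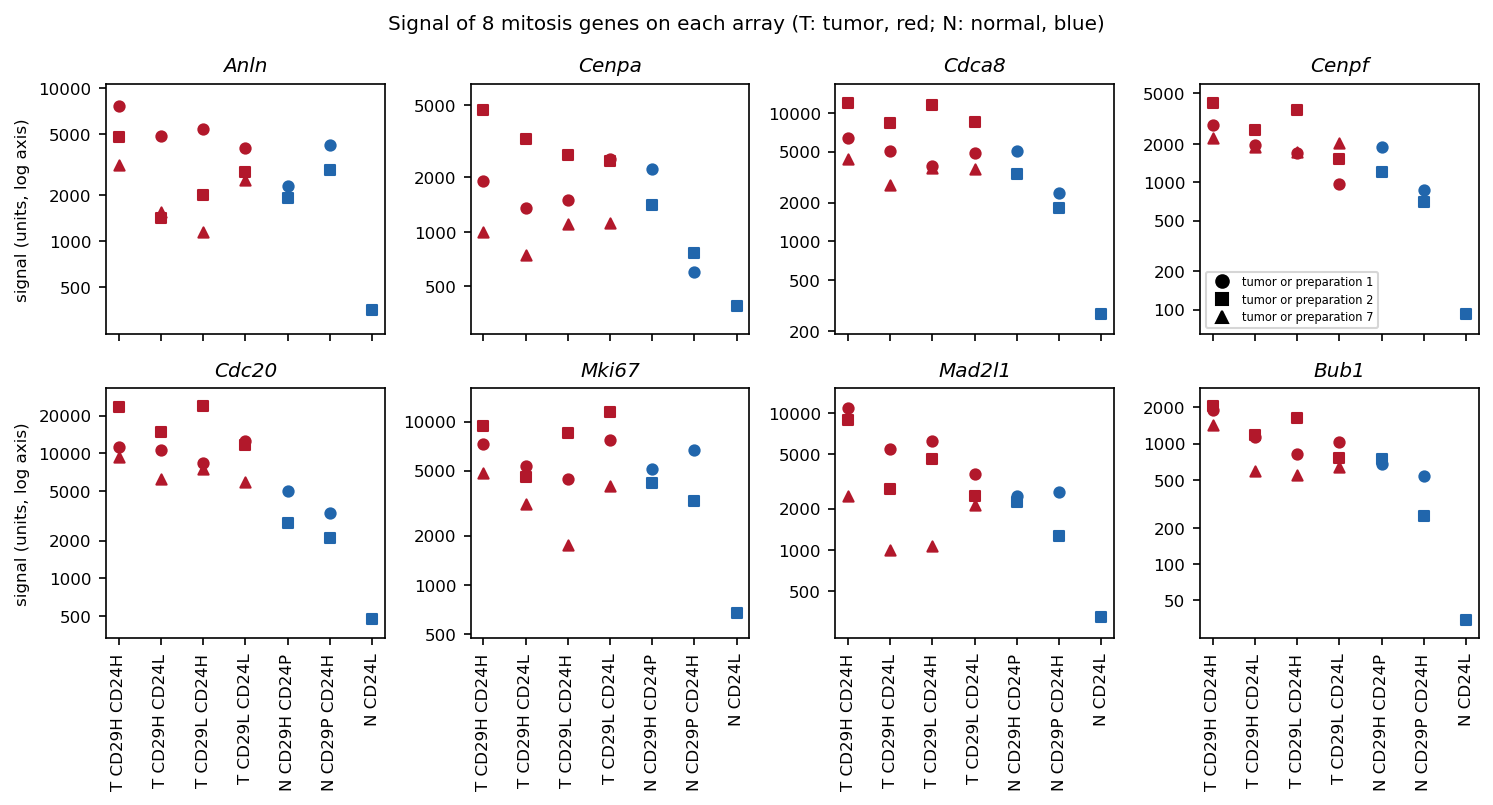
Signal (y axis, signal units on a log scale) of 8 mitosis genes on each of 17 arrays; red marks tumor and blue normal cells, and the symbol the tumor or preparation. Cdc20 is higher on all 12 tumor arrays than on the normal ones, whereas Mki67 overlaps on the 4 normal arrays of the basal and luminal gates.

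The module as a whole was not tested, and among its single genes Cdc20 alone passed. Of the 31, 29 were positive with a median of 0.67, where 52.2% of all genes were positive; without tumor 2 the median was 0.35. Shifting each array to 1 median moved the median of all genes from 0.04 to -0.17 and that of the mitosis genes to 0.46 with 26 positive, and took the calls over all genes from 59.7% higher to 36.4% higher. Tumor means did not overlap normal means for 14 genes, against 25.9% of all genes. Next to Cdc20 came Bub1b at 1.60 ± 0.44, Tpx2 at 0.94 ± 0.27 and Kif20a at 1.28 ± 0.38 (SE; adjusted p = 0.0715, 0.0790 and 0.0861, limma). Normal Bub1b signal was 798 and 509 in CD29H CD24P cells of preparations 1 and 2, and 464 and 214 in CD29P CD24H cells. The lowest tumor signal, 641 in CD29L CD24H cells of tumor 7, lay within the normal values, so single arrays overlapped where the means did not. Mki67 was at 0.22 ± 0.43 (SE), with normal signals of 3240 to 6665 inside the tumor range of 1764 to 11420. Kif4 (-0.23) and Aurkb (-0.11) were the 2 below 0 as deposited. Tumor and normal gates nearest in label were also compared, in fits that share arrays with the comparisons above. Their labels are not the same: CD24 high against positive in the first, and CD29 low against positive in the second. CD29H CD24H tumor cells against normal CD29H CD24P cells gave 29 of 31 positive (52.5% of all genes) with a median of 0.75. Tumor values were higher without overlap for 14 genes (24.9% of all genes). None passed there, against 2.23% of all genes, and Ect2 came nearest at 1.73 ± 0.37 (SE; adjusted p = 0.0507, limma), which passed in 8 of 15 alternatives. Normal Ect2 signal was 942 and 641 in CD29H CD24P cells of preparations 1 and 2, and 1334 and 557 in CD29P CD24H cells. All 3 tumor values of that gate lay above both CD29H CD24P values. Myeloid genes were positive there for 12 of 12, with 2 higher and a median of 1.98. Basal genes were positive there for 0 of 10, with a median of -4.09. The part of neither was tested. The median of the mitosis genes in that gate was 1.06 without the tumor 7 array and 0.37 without the tumor 2 array. CD29L CD24H tumor cells against normal CD29P CD24H cells gave 28 positive (54% of all genes), a median of 0.74 and 13 without overlap (24.1%). None passed, against 2.5% of all genes, and Cdc20 came nearest at 2.09 ± 0.55 (SE; adjusted p = 0.0718, limma). Here the median of the mitosis genes was 1.105 without the tumor 7 array and 0.36 without the tumor 2 array. Myeloid genes were positive for 11 of 12 (4 higher, median 2.41) and fibroblast genes for 13 of 14. Luminal genes were positive for 2 of 10 (median -2.69). The part of these lists was not tested.

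Whether the gates differ in tumors as they do in normal cells was tested directly, as the difference between 2 differences: CD29H CD24H minus CD29L CD24H in each tumor, against CD29H CD24P minus CD29P CD24H in each preparation. Anln stood apart. Across tumors 1, 2 and 7, Anln signal was 7644, 4796 and 3158 in CD29H CD24H cells, 4864, 1412 and 1541 in CD29H CD24L cells, 5414, 1988 and 1150 in CD29L CD24H cells and 4081, 2819 and 2508 in CD29L CD24L cells. Normal Anln signal was 2278 and 1924 in CD29H CD24P cells of preparations 1 and 2, and 4271 and 2919 in CD29P CD24H cells. In tumors the CD29H CD24H value exceeded the CD29L CD24H value by 0.50, 1.26 and 1.43 in tumors 1, 2 and 7, a mean of 1.06, while the normal differences were -0.90 and -0.59, a mean of -0.75. The difference between them was 1.81 ± 0.41 (SE; adjusted p = 0.00803, limma), against 5.78% of all genes higher and 7.68% lower. The call held in 15 of 16 alternatives, with adjusted p from 0.00658 to 0.117, and was lost without normal preparation 1 (1.66). With the normal arrays not paired by number it was 1.81 (adjusted p = 0.00668, limma), an alternative chosen after seeing the data. In the same comparison 5 of 14 fibroblast genes were lower (median -0.65), as were 10 of 10 basal genes (median -6.27). Of 10 luminal genes 8 were higher (median 3.41). The basal genes differed between the gates by a median of 5.96 in normal cells and 0.25 in tumors. The part of these lists was not tested. Without tumor 2 the count of mitosis genes was 2, and the share of all genes in that fit was not counted. A dimmer second Anln probe set had the same signs, 0.74 for CD29H CD24H over the other populations, -0.34 in normal cells and 0.98 for the difference.

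The other 30 genes did not pass. Of the 31, 15 were positive with a median of -0.01, and 49.8% of all genes were positive; quantile normalization and the median shift turned the median to 0.10 and 0.13, with 20 positive. A difference was therefore not shown for them, which does not show that the gates act alike. Tumor and preparation values did not overlap for 5 genes with tumors higher (21.9% of all genes) and 4 with tumors lower (21.5%). Ect2 (1.20 ± 0.47) and Kif2c, a microtubule depolymerase (0.96 ± 0.44), were the next with tumors higher (SE; adjusted p = 0.114 and 0.182, limma). At the other end was Cenpa (-0.999 ± 0.45 SE, adjusted p = 0.173, limma). Its difference between the gates was 1.34 in normal cells and 0.34 in tumors.

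**Figure D5:**
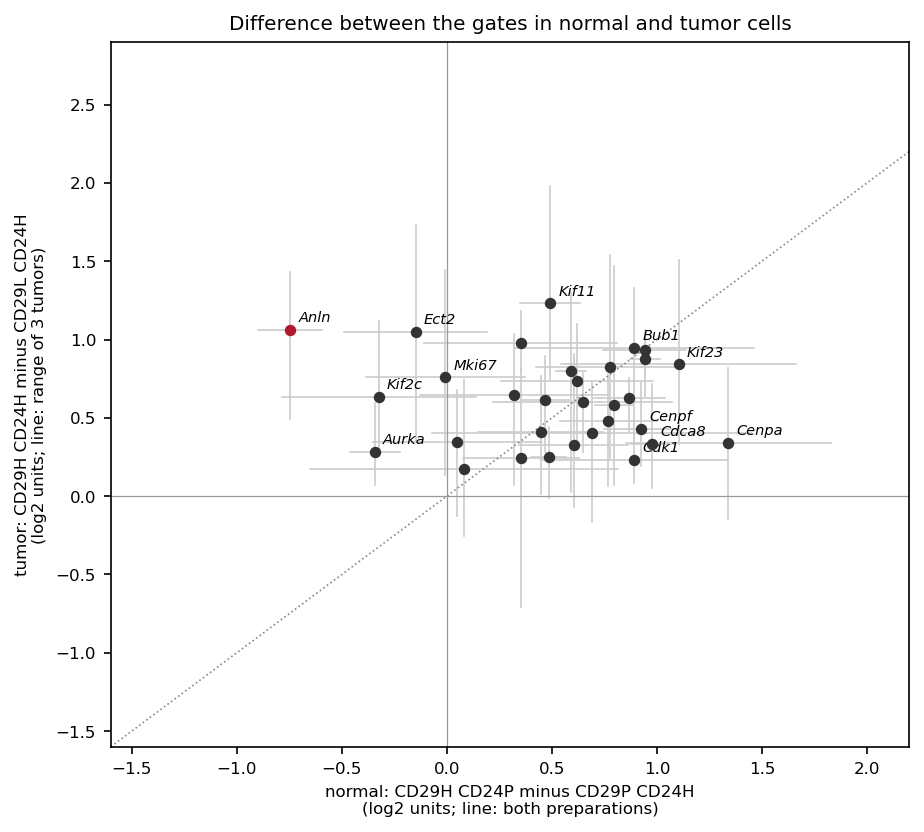
Each point is 1 mitosis gene, placed by the mean log2 difference between the gates in normal cells (x axis, CD29H CD24P minus CD29P CD24H) and in tumors (y axis, CD29H CD24H minus CD29L CD24H). Lines span both preparations and the 3 tumors, and the dotted diagonal marks equal differences. Anln (red) is the leftmost point, at -0.75 and 1.06.

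Other cell cycle genes were read from lists kept apart from the module. Of 63 further mitosis genes, 51 were tested. In CD29H CD24H against the other tumor populations 46 of 51 were positive with a median of 0.29, and 0 passed; the largest were Hmgb2, a chromatin protein (1.05 ± 0.33), and Smc2, a condensin subunit (0.99 ± 0.34, SE). Between the normal gates 5 were higher and 2 lower in CD29H CD24P, where 13.3% of all genes were higher and 14% lower; among them were the Cdk1-activating phosphatase Cdc25b (1.42 ± 0.28, adjusted p = 0.00525, limma) and, lower, the Cdk1-inhibiting kinase Wee1 (-1.44 ± 0.26, adjusted p = 0.00294, limma). In tumors against normal cells 2 of the 51 were higher, where 4.44% of all genes were: Espl1, which encodes separase (1.48 ± 0.27), and Hmgb2 (1.51 ± 0.32) (SE; adjusted p = 0.0243 and 0.0376, limma). Incenp, the scaffold of the passenger complex (1.83 ± 0.54), and Dsn1, a kinetochore protein (1.499 ± 0.38), had differences as large or larger and did not pass (SE; adjusted p = 0.0862 and 0.0576, limma).

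Of 25 tested DNA replication genes, 22 were positive in CD29H CD24H against the other tumor populations, with a median of 0.49, and 0 passed. Rrm2, a ribonucleotide reductase subunit, was at 0.98 ± 0.30 and Prim1, a DNA primase subunit, at 0.87 ± 0.33 (SE); Fen1, a flap endonuclease, was at -1.79 ± 0.78. Between the normal gates 3 were higher and 1 lower, against the 13.3% and 14% of all genes. In tumors against normal cells Mcm2, of the replicative helicase, was the 1 of 25 that was higher (1.28 ± 0.26 SE; adjusted p = 0.0347, limma), against the 4.44% of all genes. Gmnn, the licensing inhibitor geminin, had the larger difference and did not pass (1.62 ± 0.39 SE; adjusted p = 0.0523, limma). Of 13 tested Cdk inhibitors and arrest genes, 7 were positive in CD29H CD24H with a median of 0.04, and 0 passed. In normal cells 2 were higher and 4 lower in CD29H CD24P, against the same 13.3% and 14%, led by Gas1, a growth arrest gene (3.91 ± 0.24 SE; adjusted p = 5.36e-06, limma). In tumors 3 of 13 were higher than in normal cells, against the 4.44%: Cdkn2b, Cdkn1c and Cdkn1b, by 2.55, 1.62 and 1.57, and 0 were lower.

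Of the 2 arrays outside every test, the array labelled CD24L had the lowest mitosis signal of all 17 arrays of sorted cells. For 30 of the 31 genes it was the lowest array, against 17.2% of all genes tested. Signals there ran from 21.8 to 674 with a median of 95.5, and the median gene lay 2.29 log2 units below the mean of the 4 other normal arrays. There is 1 such array, so no test was made. Its fibroblast markers, given above, were high where the mitosis signal was low, and their part was not tested.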

How the data were processed

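The authors deposited 1 table of signal intensity per probe set for 18 arrays, which the submitters' processing notes credit to GCOS. The 2% trimmed mean was 500 on every array. The series text names the reference RNA as a basis for normalization, without saying how. RNA was isolated with the PicoPure kit and amplified in 2 T7 cycles, per the labels' protocols, which favours the 3' end. Of 45101 probe sets, 34945 had 1 gene symbol, 932 had several and 64 were controls. A gene was read from whichever of its probe sets averaged highest on the 17 sorted-cell arrays, as log2(signal + 32), and the dimmest 40% of genes by that mean were not tested.

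Comparisons were fitted over all 10916 genes with limma 3.58.1 (R 4.3.3, intensity trend), with Benjamini-Hochberg adjustment and a threshold of 0.05, and the fit was tested on simulated data. Figures were drawn with matplotlib 3.10.9. Tumor arrays entered together, and the CD24L and reference arrays entered no test. The arrays of 1 tumor come from the same tumor, and their deviations from the population means correlated at 0.39 to 0.73 in 18 pairs, so they are paired and a fit with tumor as a block was made. Per-array values are given for Mki67, Top2a, Cdk1, Aurka, Aurkb, Plk1, Bub1, Birc5, Cdc20 and the genes that passed a test, or, where none passed, for most of those with the smallest p. From the other lists up to 4 genes per comparison were named, those with the largest differences. The mitosis genes and all lists were chosen with earlier results of these data known. Alternatives changed the offset, scaling, filter, probe set choice, variance model, block and arrays; leaving out tumor 2 arrays of low actin ratio (with and without the block), leaving a tumor out of the count of highest populations, and not pairing the normal arrays were added after seeing the data.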

Additional observations from a re-analysis of the deposited data

Results flagged for a closer look

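The effect of the gate on Anln differed between tumors and normal cells by the direct test: the difference between the differences was 1.81 log2 units, with all 3 tumors positive and both normal preparations negative. It was 1 of 31 mitosis genes, a share below the 5.78% of all genes that were higher. Its dependence on normal preparation 1 is given above.

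The reference RNA, 1 array outside every comparison, held mitosis signal above the normal arrays: the median of the 31 genes lay 1.45 log2 units above their mean over sorted cells. The same measure was not taken over all genes.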

How the results depend on the processing

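None of the 46 single-gene results followed through the settings turned sign. Other genes did, since 26 of 31 were positive against all others once tumor 2 lost its CD29H CD24H array, and the median of the difference between differences crossed 0 within its spread. With all arrays kept, or low-actin arrays of tumor 2 left out as an added setting, the counts and medians stayed within their margin in 266 of the cases and moved in 32, and for single genes 16 calls were lost and 12 gained. For tumor against normal cells the count of 1 became 0 with offset 1, the median shift, no filter, the filter over the arrays compared, unique-type probe sets and no intensity trend. Between the normal gates the count of 3 became 5 with the larger offset, the median shift, 60% of genes left out and the filter over the arrays compared, 1 without a filter, and 8 with the replicate block (7 higher and Anln lower); the samples there share only a number (correlation 0.06). For CD29H CD24H tumor against normal CD29H CD24P cells the count of 0 became 1 with the larger offset, quantile normalization, 60% left out, the filter over the arrays compared, averaged probe sets and no trend, and 2 with all 17 arrays in 1 fit, as it did in the CD24 high gate. With tumor as a replicate block the count against CD29H CD24L became 2, and with the actin ratio added that against all other populations became 1; the block changed no other count in tumors. The median against CD29L CD24H was 0.49 with the larger offset, 0.69 with quantile normalization, 0.75 with the median shift and 0.47 with averaged probe sets, which also gave 0.095 for CD29. The count of genes highest in CD29H CD24H in every tumor became 8 with averaged and 9 with unique-type probe sets, with the share of all genes not counted. Without both tumor 2 arrays the medians were 0.29 against all others, 0.27 against CD29H CD24L and 0.21 against CD29L CD24H. For the comparisons that use normal cells, and for the fit with the actin ratio, the shares of all genes under the changed settings are not given. These counts are therefore not set against a background. Between the normal gates 13.3% of all genes were higher and 14% lower in the main fit. The causes were not tested.

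Leaving out 1 array, tumor or preparation gave counts of 0 to 0 in all 6 tumor comparisons, 0 to 23 between normal gates, 0 to 7 for tumor against normal, 0 to 9 and 0 to 2 in the matching gates, and 0 to 2 for the difference between differences. The shares of all genes in these fits are not given, so no count here is set against a background. Such a count cannot show that mitosis genes were called more often than other genes. With all arrays kept, 13.3% of all genes were already higher and 14% lower between the normal gates. Medians ran from 0.16 to 0.87 against all others, 0.27 to 0.99 against CD29H CD24L and 0.21 to 0.99 against CD29L CD24H. They ran from 0.23 to 0.87 against CD29L CD24L, 0.077 to 0.48 (CD29) and 0.14 to 0.51 (CD24). The tumor fits here have no block, so leaving out 1 array also unbalances the tumors between the gates. A fit with the block is given above for the CD29H CD24H array of tumor 2. Between normal gates the range was 0.298 to 0.907, and for tumor against normal 0.35 to 0.92. In the gates nearest in label the ranges were 0.37 to 1.06 and 0.36 to 1.11. For the difference between differences the range was -0.21 to 0.28. With 1 tumor left out, the count of genes highest in every remaining tumor was 17 to 22. By its rule it cannot fall below the 16 found with all tumors, so it does not measure stability. The share of all genes under that rule was not counted. A fit without a preparation or a normal array assumes that the array left alone varies like the others. Few arrays and 1 array per tumor and gate limit all of these.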
